A study of Mus musculus with 15 samples.

Results

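The genomic regions described here carried a peak of SMC3, a core subunit of the cohesin ring, in each of 6 libraries of a mouse blood progenitor line, 3 from cells with an shRNA against the transcription factor YY1 and 3 from control cells. Peaks of the 6 SMC3 lists that shared at least 1 bp on chromosomes 1 to 19, X and Y were merged into 6175 regions, and 1339 of these, called members below, had a peak in all 6 libraries. The members were thus chosen by the SMC3 peak calls of these same libraries, and nothing about those calls is tested. The cells were HPC-7, an early haematopoietic line derived from embryonic stem cells, and the assay was CUT&Tag, which uses an antibody to tether a transposase that inserts sequencing adapters into nearby DNA. The groups were shYY1 cells profiled for SMC3 (3 libraries) and WT cells profiled for SMC3, YY1 and the promoter mark H3K4me3 (3 libraries each), with about 150000 cells per reaction. The control cells are named WT in the titles and shLUC, a luciferase shRNA, in the descriptions, so both arms carry an shRNA name. Only SMC3 library 1 of each arm has Abcam in its description, and the number 2 carried by every shYY1 description is not explained. YY1 was not profiled in shYY1 cells, so these lists do not show the depth of the knockdown, and the 3 IgG libraries of WT cells were not analysed here. An open-promoter signal common to the SMC3 and YY1 antibodies and binding itself cannot be told apart with these lists.

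Cohesin is a ring of SMC1A, SMC3, RAD21 and a STAG subunit that holds sister chromatids together and folds chromatin into loops. Its loops often end where the zinc finger protein CTCF is bound, and it is also found at active promoters and enhancers. YY1 is a zinc finger factor that binds promoters and enhancers through a short motif with the core CCAT, is needed by blood stem cells in the mouse, and has been described as able to bring enhancers and promoters together. H3K4me3 marks the nucleosomes that flank active gene starts.

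The deposited lists gave positions and summits with no height, score or read count, so sequencing depth is unknown and peak length is the only size available. The SMC3 lists held 2631, 3213 and 3032 peaks in shYY1 cells and 4511, 4595 and 2061 peaks in WT cells. The third WT list was the shortest, and of the 692 regions called in 5 of 6 libraries 363 lacked a peak only there, against 148, 71 and 91 missing only in shYY1 libraries 1 to 3 and 9 and 10 missing only in WT libraries 1 and 2. The YY1 lists held 8469, 10699 and 3750 peaks and the H3K4me3 lists 16763, 17895 and 17493. H3K4me3 covered the start of 12 of 13 progenitor marker genes, of 2 of 5 macrophage and granulocyte markers, and of 0 of 5 mature erythroid, 0 of 5 T and B cell, 0 of 4 pluripotency and 0 of 8 liver, neural, muscle and epithelial markers.

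Promoter sequences are shown first, because most members lay on promoters and the letters under the SMC3 and YY1 summits are what the shapes below refer to. The sequences are RefSeq promoter windows of GRCm38.p6, from 250 bases before to 50 after a gene start, written 5′ to 3′ on the gene's strand. Capitals mark AANATGG, a YY1 motif, or CCAAT, the motif of the trimeric factor NFY, either of them on either strand. Gsk3b, the kinase of glycogen synthase and beta-catenin, is shown for CCAAT without a YY1 motif (chr16:38088751-38089050, plus strand). Srgap2, a regulator of membrane shape, holds both motifs (chr1:131527312-131527611, minus strand). Cox20, an assembly factor of cytochrome oxidase, holds a YY1 motif (chr1:178318903-178319202, plus strand), as does Nfya, itself a subunit of NFY (chr17:48409705-48410004, minus strand). The promoter of Smc3 is shown because it encodes the profiled protein (chr19:53600146-53600445, plus strand).
Gsk3b: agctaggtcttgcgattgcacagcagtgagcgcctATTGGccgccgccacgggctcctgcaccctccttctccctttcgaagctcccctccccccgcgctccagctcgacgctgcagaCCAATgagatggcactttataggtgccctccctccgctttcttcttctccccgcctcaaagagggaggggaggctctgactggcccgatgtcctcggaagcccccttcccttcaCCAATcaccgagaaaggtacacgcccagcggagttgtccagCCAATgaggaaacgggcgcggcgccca
Srgap2: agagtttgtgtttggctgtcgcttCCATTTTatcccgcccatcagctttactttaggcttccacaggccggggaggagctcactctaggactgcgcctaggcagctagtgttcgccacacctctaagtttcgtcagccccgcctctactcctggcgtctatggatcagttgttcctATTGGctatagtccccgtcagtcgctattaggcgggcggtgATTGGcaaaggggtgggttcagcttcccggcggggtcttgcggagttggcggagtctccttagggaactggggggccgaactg
Cox20: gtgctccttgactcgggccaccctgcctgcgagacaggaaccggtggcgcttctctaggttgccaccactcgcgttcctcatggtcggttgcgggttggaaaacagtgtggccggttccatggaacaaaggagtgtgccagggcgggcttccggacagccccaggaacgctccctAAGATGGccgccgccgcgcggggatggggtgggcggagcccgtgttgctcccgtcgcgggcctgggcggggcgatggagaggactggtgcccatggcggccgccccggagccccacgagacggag
Nfya: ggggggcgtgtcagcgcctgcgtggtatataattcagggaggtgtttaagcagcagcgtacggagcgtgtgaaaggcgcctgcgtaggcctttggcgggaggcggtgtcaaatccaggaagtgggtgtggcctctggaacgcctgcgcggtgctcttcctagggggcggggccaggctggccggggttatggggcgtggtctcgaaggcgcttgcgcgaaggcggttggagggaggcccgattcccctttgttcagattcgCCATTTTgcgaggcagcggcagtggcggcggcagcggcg
Smc3: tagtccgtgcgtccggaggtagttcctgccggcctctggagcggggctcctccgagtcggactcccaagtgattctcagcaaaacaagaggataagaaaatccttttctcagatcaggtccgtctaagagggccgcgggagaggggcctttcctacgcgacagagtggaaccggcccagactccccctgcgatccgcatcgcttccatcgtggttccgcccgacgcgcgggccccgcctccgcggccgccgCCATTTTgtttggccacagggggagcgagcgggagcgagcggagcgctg

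In the Gsk3b window, CCAAT was centred 213, 130 and 16 bases before the start (-213, -130, -16) and 25 bases after it, while the SMC3 summit, as the median of 6 libraries, lay at -116.5 and the YY1 summit, as the median of the WT YY1 libraries, at -111. The Gsk3b member was covered by SMC3 peaks of 668, 749 and 834 bp in shYY1 cells and of 979, 945 and 716 bp in WT cells. In Srgap2 the YY1 motif was centred at -223 and CCAAT at -72 and -31, with the SMC3 summit at -163.5 and the YY1 summit at -166. The Cox20 YY1 motif was centred at -72 and the YY1 summit at -79, with the SMC3 summit farther upstream at -195.5. In Smc3 the YY1 motif lay at 4 bases after the start, whereas the SMC3 and YY1 summits lay together at -250.5 and -248. Summits of the 2 proteins thus lay together in Gsk3b, Srgap2 and Smc3 and apart in Cox20. Of promoters chosen in the same way but not printed, Mttp had both summits at -254, and Ppp2r5a had SMC3 at -174 and YY1 at -265. For Srgap2, Cox20 and Nfya, holding AANATGG was part of the choice, so its presence there is no result. The Smc3 summits lay at the edge of its window, and the sequence before it was not read. In Nfya too they lay apart, at -109.5 for SMC3 and -220 for YY1, with the motif centred 14 bases after the start. The Yy1 gene carried a member as well, whose SMC3 and YY1 summits both lay at -359, before the window, and its window held neither motif.

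Over promoter windows of any base composition, the YY1 motif share on members lay within 1 percentage point of that in each other class. The SP/KLF and CCAAT motifs were found in a larger share of windows on members than at promoters with H3K4me3 and no SMC3. Windows were counted for protein-coding genes with a stranded start, and 1049 windows of 930 genes overlapped a member, so that 821 of the 1339 members entered these counts. AANATGG was found on either strand in 15.9% of these, in 15.1% of 2905 windows on other SMC3 regions, in 15.8% of 5756 windows with H3K4me3 and no SMC3, and in 15.1% of all 21263 windows. GGGCGGG, bound by SP and Kruppel-like factors, was found in 64.5% of windows on members, 55.9% on other SMC3 regions, 46.5% with H3K4me3 only and 33.9% of all. CCAAT was found in 46.3% of windows on members, 46.1% on other SMC3 regions, 33.8% with H3K4me3 only and 38.2% of all. Over windows of any base composition, its share on members was thus close to that on other SMC3 regions. The CTCF core AGGGGGC, which can share G-rich letters with GGGCGGG, was found in 22.5%, 19.3%, 15.3% and 12.9% of the same classes in the same order. These shares were not tested, since promoters are not replicates.

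The base composition of the classes differed as well. The median share of G and C was 65.0% in windows on members, 63.3% on other SMC3 regions, 60.7% with H3K4me3 only and 56.3% over all windows, and the median number of CpG was 25, 24, 21 and 13. Among windows of 60 to 70% G and C, a range chosen after the composition had been seen, CCAAT was found in 49.0% on members, 44.9% on other SMC3 regions and 32.4% with H3K4me3 only. In that range GGGCGGG was found in 67.2%, 61.9% and 57.0% and the YY1 motif in 16.6% on members, 15.02% on other SMC3 regions, 14.5% with H3K4me3 only and 12.5% of all windows. The excess of GGGCGGG over promoters with H3K4me3 only thus came to 10.2 percentage points in this range, less than the 17.99 points over all windows. That of CCAAT came to 16.6 points, more than the 12.6 over all windows. The excess of the YY1 motif came to 2.04 points in this range and 0.15 over all windows. Motifs of the blood factors were rare, with the GATA motif AGATAAG in 1.05% and the RUNX motif TGTGGTT in 2.19% of windows on members, against 2.64% and 4.71% of all windows. Among windows of 60 to 70% G and C, the GATA motif was found in 1.19% on members and 1.06% of all, and the RUNX motif in 2.39% on members and 2.93% of all. The ETS motif CCGGAAG was found in 22.1% on members, 23.6% on other SMC3 regions and 20.3% with H3K4me3 only.

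**Figure D1:**
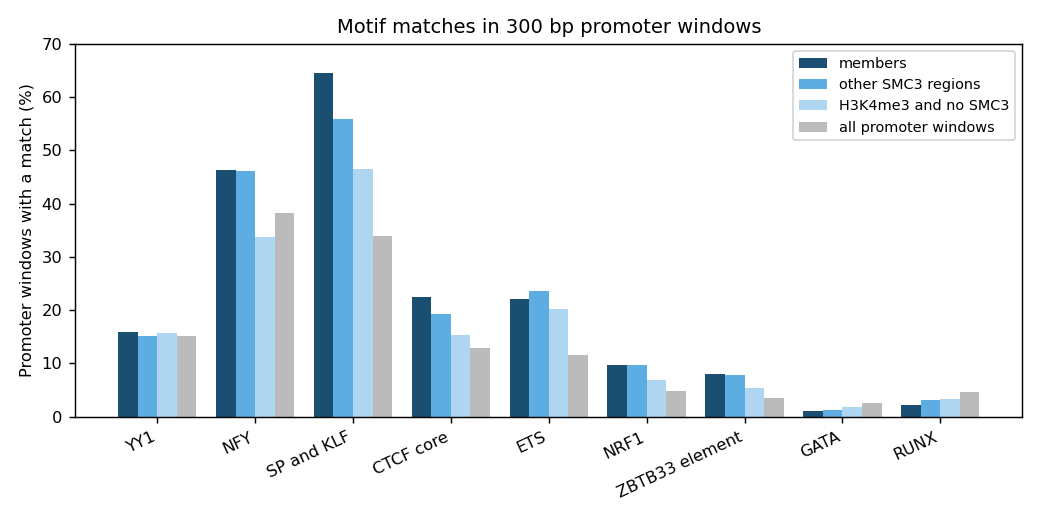
Share of 300 bp promoter windows that hold each motif on either strand, in percent, for windows on members, on other SMC3 regions, with H3K4me3 and no SMC3, and for all windows; bars start at 0 and carry no error because promoters are not replicates. The YY1 bars sit between 15.1 and 15.9%, while the SP and KLF bars step down from 64.5% on members to 33.9% over all windows.

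Most matches lay before the start. In windows on members the median centre of CCAAT was 97 bases before the start (-97), of GGGCGGG -77, of CCGGAAG -55.5 and of AANATGG -84. Where the SMC3 summit fell inside the window, the nearest CCAAT was a median of 42.25 bp away in 324 members and the nearest GGGCGGG 46.0 bp in 455. The nearest AANATGG was a median of 98.5 bp away in 101 members, and 23.8% of these had it within 50 bp of the SMC3 summit, against 32.7% within 50 bp of the YY1 summit. Short or G-rich motifs occur more often in a window, with 1.83 CCAAT and 2.08 GGGCGGG per window that held any and 1.16 AANATGG, so these distances are not comparable between motifs.

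Members lay mainly at the starts of protein-coding genes. Of 1339 members, 1043 (77.9%) lay within 1000 bp of such a start, against 68.2% of all 6175 merged regions and 65.6% of the 4836 other regions. The next class, called in 5 of 6 libraries, was close to members at 75.6%. A further 30 members lay only at the start of a long non-coding RNA gene, 121 lay inside a protein-coding gene away from any start, and 145 lay outside protein-coding genes and away from starts. For protein-coding genes with no stranded start, either end of the gene counted as a start. A stranded start lay within 1000 bp of 871 members. In all 1209 protein-coding genes had a member at a start, with 874 members serving 1 gene, 168 serving 2 neighbouring genes and 1 serving 3. Members at 2 genes transcribed away from each other made up 112 of 871 members at starts with known strand (12.9%), against 12.1% of other regions at such starts. Members were spread out, with a median of 723359 bp between neighbours. Seen from H3K4me3, 1284 of 16653 reproducible H3K4me3 regions (7.71%) carried a member. These were longer, with a median of 1236 bp, than the 1083 bp of regions with other SMC3 peaks and the 754 bp of regions without SMC3. A longer region overlaps a member more easily, and the part of this in the order was not tested.

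Nearly all members were also called for YY1. A YY1 peak was present in 3 of 3 WT libraries at 1189 members (88.8%), in 2 at 141, in 1 at 7 and in none at 2. It was present in 2 or 3 libraries at 99.3% of members, against 84.5% over all merged SMC3 regions. Over all these regions 49.1% had YY1 in 3 of 3 libraries, and over the other regions 38.1%. By YY1 library, 99.0%, 99.9% and 89.2% of members and 81.9%, 88.8% and 38.9% of other regions carried a peak. The third YY1 library, the shortest list, held most of the contrast, and in the other 2 libraries members and other regions were closer. The difference averaged 26.1 percentage points, and an exact two-sided sign-flip test over the 3 libraries gave p = 0.25, the smallest that 3 libraries allow. It came to 14.0 points without the third YY1 library, 30.6 without the first and 33.6 without the second. Against regions called in 5 of 6 libraries it came to 9.05 points (exact sign-flip p = 0.25). The share with YY1 in 3 of 3 libraries was 20.3%, 34.2%, 45.9%, 56.2%, 66.0% and 88.8% in regions called in 1 to 6 SMC3 libraries. These regions also widened, with medians of 170, 236.5, 281, 313.5, 356 and 449 bp, and a wider region meets a peak more easily. With SMC3 peaks cut to 100 bp around their summits before merging, the difference between members and other regions averaged 22.4 points.

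H3K4me3 was present in 3 of 3 libraries at 1272 members (95.0%), against 87.9% over all merged regions and 85.9% of other regions. In 2 or 3 libraries it was present at 96.0% of members, against 89.6% over all merged regions. By H3K4me3 library the shares were 95.7%, 96.6% and 95.7% of members and 87.2%, 88.2% and 87.9% of other regions, a difference of 8.23 points in the same direction in 3 of 3 libraries (exact sign-flip p = 0.25). Against regions called in 5 of 6 libraries the difference was 1.63 points. With SMC3 peaks cut to 100 bp around their summits before merging, the difference from other regions was 6.35 points. Both marks were present in 3 of 3 libraries at 1140 members. YY1 peaks on members were longer than elsewhere, at 504.8 ± 94.0 bp on members, 359.3 ± 60.1 bp on other SMC3 regions and 252.5 ± 22.5 bp without SMC3 (mean of library medians ± SD, n = 3). H3K4me3 peaks were 1121 ± 82.0 bp on members, 976 ± 75.3 bp on other SMC3 regions and 623 ± 71.0 bp without SMC3 (n = 3). Both differences between members and other SMC3 regions had the same sign in 3 of 3 libraries (exact sign-flip p = 0.25 each). Longer peaks overlap a region more easily, and the part of this in these lengths was not tested. Members took up 15.7%, 12.5% and 31.9% of the 3 YY1 lists.

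**Figure D2:**
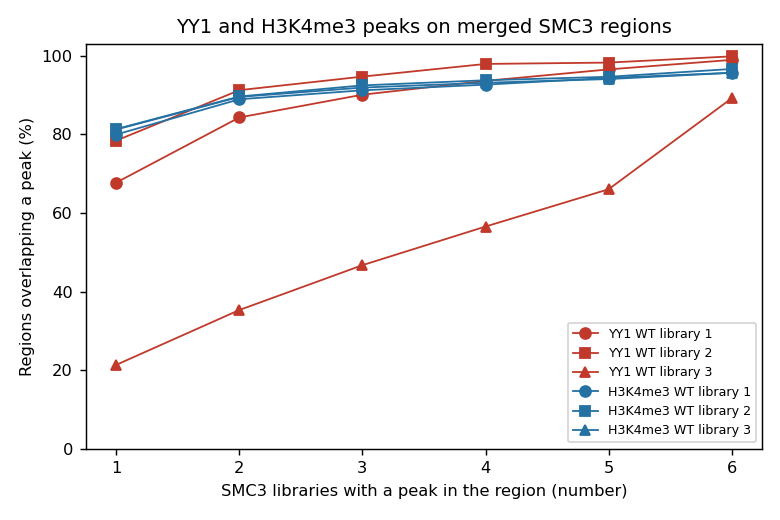
Share of merged SMC3 regions that overlap a peak of YY1 or H3K4me3 in percent, by the number of SMC3 libraries with a peak in the region, with a line for each WT library. All 6 lines rise with the number of SMC3 libraries, and the third YY1 library reaches 89.2% at 6 against 21.4% at 1. Median region width rises too, from 170 bp at 1 to 449 bp at 6.

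SMC3 summits lay close to YY1 summits and just before gene starts. The median SMC3 summit of a member lay 18.25 bp from its median YY1 summit (median over 1330 members with YY1 in 2 or 3 libraries), and 88.7% of these members had both within 100 bp. Taken between pairs of single libraries, SMC3 and YY1 summits were a median of 26 to 47 bp apart over 18 pairs. Pairs of SMC3 libraries were 25 to 37 bp apart over 15 pairs, and pairs of YY1 libraries 20 to 38 bp over 3 pairs. The distance between the proteins was therefore within or just beyond that between libraries of the same protein. SMC3 and H3K4me3 summits were 72 to 87 bp apart. The summits of all 6 SMC3 libraries fell within 100 bp of each other at 701 members and within 50 bp at 319.

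At 871 members with a stranded start, 331 (38.0%) had the SMC3 summit 250 to 100 bp before the start, 223 (25.6%) in the last 100 bp before it and 121 (13.9%) in the first 100 bp after it. No shift of these positions between arms was detected with 3 libraries each. The median position was -99, -106 and -99 bp in shYY1 cells and -100, -97 and -106 bp in WT cells, a difference of -0.33 bp (exact permutation p = 1). The share of summits before the start was 75.3%, 76.6% and 77.2% in shYY1 cells and 75.3%, 75.7% and 76.5% in WT cells. The groups overlapped in both measures. The distance from the SMC3 summit to the YY1 summit of WT cells had medians of 31, 31 and 29.25 bp in shYY1 cells and 23, 24 and 33 bp in WT cells. The difference was 3.75 bp (exact two-sided permutation p = 0.4, where 0.1 is the smallest that 3 against 3 libraries allow). WT libraries 1 and 2, the longest lists, had the smallest distances, and WT library 3, the shortest list, the largest. Without WT library 3 the difference was 6.92 bp (exact permutation p = 0.1, the smallest that 3 against 2 libraries allow). Without WT library 1 it was 1.92 bp (exact permutation p = 0.8). Summits of libraries from different arms were 31.2 bp apart and those of the same arm 32.5 bp, a difference of -1.28 bp (exact permutation p = 0.1).

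**Figure D3:**
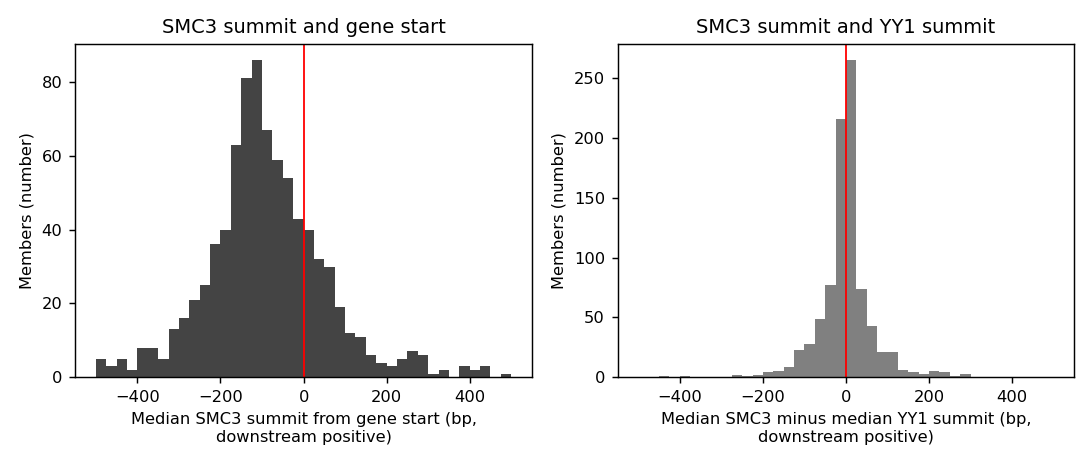
Left, position of the median SMC3 summit relative to the gene start in bp, downstream positive, for members with a stranded start; right, the median SMC3 summit minus the median YY1 summit in bp on the gene's strand. Bars count members in 25 bp steps, positions beyond 500 bp are not drawn, and the red line marks 0. The left distribution lies mostly before the start, and the right distribution is centred on 0.

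The longest SMC3 peaks marked a mix of promoters and sites away from gene starts. Peak length was ranked within each list as a percentile, and the mean percentile over 6 libraries of a member was 69.0 at the median, from 6.67 to 100. The call in all 6 libraries favoured long peaks: regions called in 5 of 6 libraries had a median of 47.8 and reached 93.4. Merged members spanned 167 to 2447 bp, with a median of 449 bp, and 18 exceeded 1000 bp. The longest was at chr17:13550683-13553129, 196111 bp from the nearest protein-coding start, that of Tcp10c. It was covered over 2430, 2444 and 2442 bp in shYY1 cells and 2416, 2417 and 2401 bp in WT cells, the 100th percentile in every list. The member nearest Zfp825, 34634 bp away, was covered over 1978, 2012 and 2017 bp in shYY1 cells and 2022, 1982 and 1983 bp in WT cells. Nearly the whole region was covered in every library, and both regions carried YY1 and H3K4me3 in 3 of 3 libraries. In the Tcp10c region the median SMC3, YY1 and H3K4me3 summits lay at 13552338, 13552351 and 13552353. In the Zfp825 region they lay at 74529651, 74529655 and 74529415. The IgG libraries were not analysed, and the part of repeated sequence or background in these calls was not tested.

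Other long members lay on promoters. At Lnpep, the insulin-regulated aminopeptidase, SMC3 covered 958, 949 and 1060 bp in shYY1 cells and 1060, 1058 and 876 bp in WT cells. At Rnf5, a ubiquitin ligase of the endoplasmic reticulum, it covered 798, 772 and 790 bp in shYY1 cells and 872, 777 and 855 bp in WT cells. The arms overlapped at both genes. Ppp2r5a, a regulatory subunit of protein phosphatase 2A, was covered over 805, 775 and 710 bp in shYY1 cells and 765, 693 and 693 bp in WT cells. The remaining long members lay 2060 bp from the start of Maml3, a Notch coactivator, and farther from those of Smo, Smyd3, Rpn1, Fam43a and Impact. At the low end, the member of Morc3 (percentile 6.67) was covered over 166, 141 and 129 bp in shYY1 cells and 141, 145 and 155 bp in WT cells, with YY1 and H3K4me3 still present in 3 of 3 libraries. Just outside the rule lay Zfp263 (percentile 93.4), with no peak in WT library 1, and the shared promoter of Paics and Ppat (91.9) and the starts of Mlec and Zfp959, with no peak in WT library 3. A region 79952 bp from the start of Gas1, with no H3K4me3 peak in any library, lacked a peak in WT library 3 as well. All 5 regions carried YY1 in 3 of 3 libraries.

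Members without YY1 or H3K4me3 were few. The 2 members with no YY1 peak lay 19968 bp from the start of Fignl1 and 97577 bp from that of Ctif. The region near Fignl1 (chr11:11788643-11788994) was covered over 240, 229 and 282 bp in shYY1 cells and 167, 137 and 244 bp in WT cells, with H3K4me3 in 3 of 3 libraries. No H3K4me3 peak was present at 41 members. Of these 26 carried YY1 in 3 libraries, 11 in 2 and 4 in 1. The longest, chr1:179162925-179164310, lay 210965 bp from the start of Smyd3 and was covered over 1262, 1108 and 969 bp in shYY1 cells and 1380, 1239 and 1217 bp in WT cells. Among the 8 longest, 3 lay at the first assembled bases of chromosome 9, next to the centromere. Of these, chr9:3012181-3012949 was covered over 752, 769 and 683 bp in shYY1 cells and 650, 712 and 702 bp in WT cells. Mouse centromeres are flanked by repeated satellite DNA, and the part of repeated sequence in these calls was not tested.

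Genes of the Kruppel-like and SP factors were often among the genes with a member. Of 10437 protein-coding genes with H3K4me3 at a start in at least 2 libraries, 1209 (11.6%) had a member there. For Kruppel-like and SP factors, zinc finger proteins that bind GC-rich boxes, the count was 7 of 14. Klf13 was covered over 696, 666 and 675 bp in shYY1 cells and 921, 993 and 784 bp in WT cells. Sp1 was covered over 561, 426 and 556 bp in shYY1 cells and 1021, 838 and 418 bp in WT cells. On these uncentred lengths the groups did not overlap at Klf13 and overlapped at Sp1. Over all 1339 members, 99 (7.39%) were shorter in every shYY1 library than in every WT library without centring. Klf7, Klf10, Klf6, Klf16 and Sp4 made up the rest, and all 7 carried YY1 and H3K4me3 in 3 of 3 libraries.

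Immediate early and AP-1 genes, which are switched on within minutes of a signal, had 7 of 25. They share Klf13 and Klf6 with the list above. Among them was Zfp36l2, which promotes decay of AU-rich messengers. It was covered over 623, 409 and 681 bp in shYY1 cells and 969, 888 and 999 bp in WT cells, without overlap before centring, as were 7.39% of all members. Dusp1, a MAP kinase phosphatase, was covered over 513, 629 and 503 bp in shYY1 cells and 527, 620 and 599 bp in WT cells, with overlap. Splicing genes had 10 of 50, led by Srsf7, Hnrnpa2b1 and Snrpe. Small nucleolar RNA host genes had 3 of 13, namely Gas5, Snhg8 and Snhg10, and histone genes 11 of 66, led by H4f16, H2az1 and H1f3. A single member between H2ac6 and H2bc4, which share a promoter, counts for both.

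Among genes of the machinery itself, cohesin and CTCF genes had 3 of 14. Stag1, a cohesin subunit, was covered over 297, 399 and 377 bp in shYY1 cells and 577, 501 and 465 bp in WT cells. Sgo1, the protector of centromeric cohesin, was covered over 388, 360 and 402 bp in shYY1 cells and 393, 421 and 374 bp in WT cells. Smc3 was covered over 391, 369 and 339 bp in shYY1 cells and 374, 406 and 351 bp in WT cells. On uncentred lengths the arms did not overlap at Stag1 and overlapped at Sgo1 and Smc3. Of all members, 7.39% were shorter in every shYY1 library without centring, as Stag1 was. Genes of YY1, INO80 and Polycomb had 3 of 36: Uchl5, a deubiquitinase of INO80, Mbtd1 and Yy1. Yy1 was covered over 286, 289 and 267 bp in shYY1 cells and 289, 344 and 238 bp in WT cells, with overlap.

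The list of progenitor markers had 1 of 12, Kit (8.33%), against 11.6% over all genes. A list of 12 genes is too short to place on either side of that share. Blood stem and progenitor regulators had 5 of 28. These were Zfp36l2, Zfpm1 (the GATA1 cofactor FOG1), Kit (the stem cell factor receptor), and Nfe2 and Hhex, both transcription factors. Kit was covered over 324, 333 and 249 bp in shYY1 cells and 311, 361 and 225 bp in WT cells, with YY1 in 2 of 3 libraries. Zfpm1 was covered over 647, 530 and 753 bp in shYY1 cells and 881, 755 and 240 bp in WT cells. Both overlapped between arms, and WT library 3 gave the shortest peak at each. Cell cycle and replication genes had 6 of 37, led by Cdk4, Orc6 and Orc4, and JAK-STAT and NF-kappaB genes 4 of 26, led by Relb, Stat3 and Tnfaip3.

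Housekeeping lists stood on both sides of the share over all genes. Translation factors and regulators had 11 of 65, led by Eef1a1, Eif5a and Eif4g2, antioxidant genes 4 of 22, led by Nfe2l2, Txn1 and Sod2, and glycolysis 3 of 16, with Pgk1, Eno1 and Hk1. Near or below it lay mitochondrial ribosomal proteins with 7 of 77 (9.09%), oxidative phosphorylation with 6 of 77 (7.79%) and cytoplasmic ribosomal proteins with 6 of 78 (7.69%). Mediator and RNA polymerase II had 4 of 43 (9.30%) and aminoacyl-tRNA synthetases 3 of 35 (8.57%). Numbered Zfp genes had 22 of 273, and ubiquitin and proteasome genes 2 of 50, Cul3 and Psma1. Ndufb5 and Mrpl47 share 1 member between their starts, so that region counts in both lists. H3K4me3 was present at 273 of 367 Zfp genes and 78 of 83 cytoplasmic ribosomal protein genes, and only genes with it were counted. The counts are descriptions with no test.

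**Figure D4:**
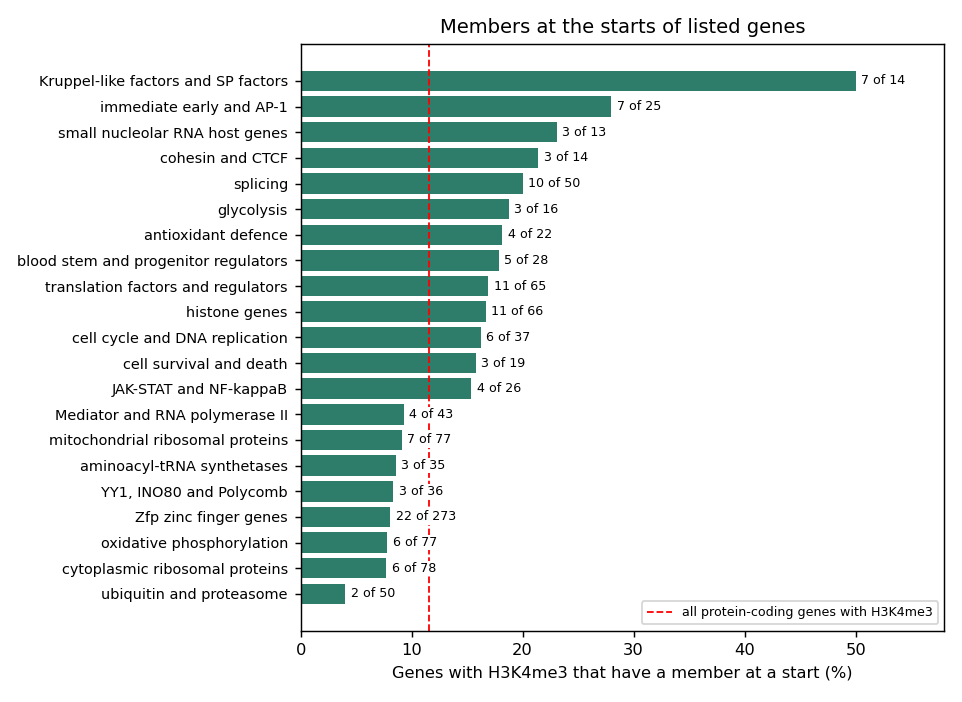
Share of listed genes with H3K4me3 at a start that have a member there, in percent; labels give the counts and the dashed line marks 11.6%, the share over all protein-coding genes with H3K4me3. Kruppel-like and SP factors stand at 7 of 14 and ubiquitin and proteasome genes at 2 of 50. Lists of cell type markers are not drawn.

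The comparison of arms asked whether SMC3 peaks at members differ in length when YY1 is targeted. Being called in both arms is what chose the members, so their presence in shYY1 cells is no result, and lengths were compared instead. The lengths come from the same calls, and a region whose peak was lost in any library is not a member. Losses of SMC3 that went below a call are thus absent from the length comparison. The median length over members was 315, 312 and 313 bp in shYY1 cells and 368, 359 and 283 bp in WT cells. The shYY1 libraries were close to each other and lay between the WT libraries. The median log2 length averaged 8.29 ± 0.007 in shYY1 cells and 8.39 ± 0.21 in WT cells (SD, n = 3), a difference of -0.09 (exact two-sided permutation p = 0.4). Without WT library 3 it was -0.21 (exact permutation p = 0.1, the smallest that 3 against 2 libraries allow). Without WT library 1 it was -0.02 and without WT library 2 -0.04 (exact permutation p = 0.7 each). WT library 3 had the fewest peaks and the shortest median length at members, while its peaks outside members had a median of 211 bp, against 210 bp in each of WT libraries 1 and 2. The part of depth in these lengths was not tested. In bulk cells a peak present in fewer cells and a weaker peak in each cell cannot be told apart.

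No single member passed a test between arms. With log2 lengths centred on each library's median over members, limma with Benjamini-Hochberg adjustment called 0 of 1339 members longer and 0 shorter (0% each), and 80 had an unadjusted p under 0.05. Lengths of 1339 members were also simulated with 1 common spread for all. There 88.0% of planted log2 differences of 1 and 1.5% of those of 0.5 were recovered, so the smaller size was mostly beyond detection. Real members differed in spread, with limma standard errors of 0.15 nearest Zfp64 and 0.60 nearest Dnaja1. Recovery at members of wide spread was therefore not measured. The member nearest Cyp51 had a log2 difference of 1.13 ± 0.38 (SE, limma adjusted p = 0.788). After centring, 75 members (5.6%) were longer and 66 (4.93%) shorter in every shYY1 library than in every WT library. Each direction is reached by 1 of the 20 possible assignments of libraries to arms, so these shares are near what assignment alone gives. Without centring the counts were 23 (1.72%) and 99 (7.39%), a different balance of directions. The members named next are the extremes of these counts, none was called by limma, and their lengths are given as descriptions.

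Among the members longer in shYY1 cells after centring, the member 5561 bp from the start of Mepe, a bone matrix gene, was covered over 1014, 908 and 981 bp in shYY1 cells and 852, 763 and 253 bp in WT cells. Fzd7, a Wnt receptor, was covered over 326, 389 and 224 bp in shYY1 cells and 187, 207 and 161 bp in WT cells, a centred log2 difference of 0.82 ± 0.22 (SE, limma adjusted p = 0.788). The shared promoter of Fkbp15 and Slc31a1 (a copper importer) was covered over 472, 339 and 425 bp in shYY1 cells and 354, 248 and 221 bp in WT cells. At these genes WT library 3 had the shortest peak, and the lengths of Fkbp15 overlapped before centring. Akap8, an anchor of protein kinase A in the nucleus, and regions 60998 bp from the start of Gm15319 and 234465 bp from that of Cyria completed the 6 largest.

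Among the members shorter in shYY1 cells, the largest difference was 18168 bp from the start of Ppcdc, an enzyme of coenzyme A synthesis. It was covered over 245, 213 and 191 bp in shYY1 cells and 571, 680 and 363 bp in WT cells, a centred log2 difference of -1.18 ± 0.20 (SE, limma adjusted p = 0.329). The member 1745 bp from the start of Crlf2, the receptor chain for thymic stromal lymphopoietin, was covered over 203, 146 and 160 bp in shYY1 cells and 334, 335 and 340 bp in WT cells. Zfp787 was covered over 348, 207 and 262 bp in shYY1 cells and 472, 496 and 521 bp in WT cells. Med14, a Mediator subunit, was covered over 329, 156 and 230 bp in shYY1 cells and 422, 397 and 419 bp in WT cells. The shared promoter of Blvrb, a biliverdin reductase, and Sptbn4 was covered over 220, 234 and 175 bp in shYY1 cells and 460, 371 and 341 bp in WT cells, and Slc25a28, a mitochondrial iron importer, over 169, 338 and 331 bp in shYY1 cells and 575, 597 and 417 bp in WT cells. In all 6 the arms were apart without centring as well, and YY1 and H3K4me3 were present in 3 of 3 libraries.

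**Figure D5:**
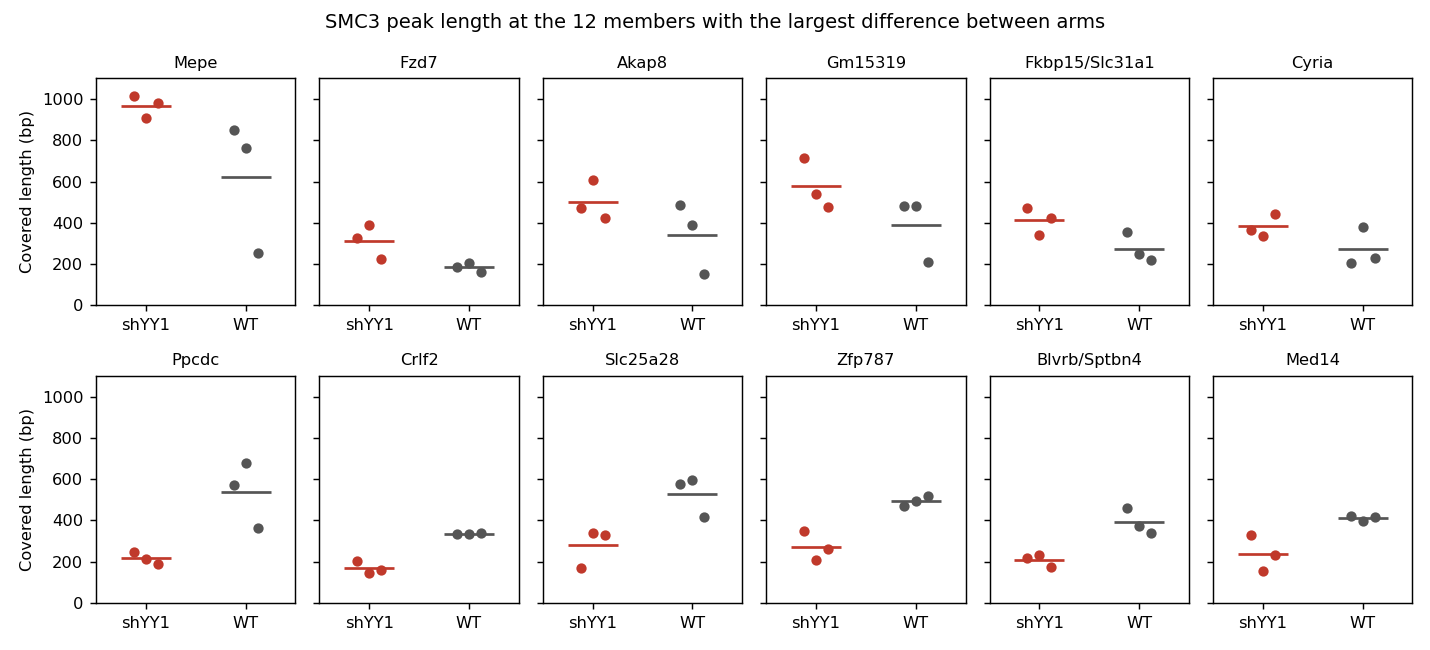
Covered SMC3 length in bp at the 6 members with the largest positive and the 6 with the largest negative centred difference among members whose arms did not overlap after centring; points are libraries 1 to 3 from left to right, shYY1 left and WT right, and the bar is the mean. The lower row has WT points above all shYY1 points without centring, while the upper row includes members, such as Akap8, whose uncentred points overlap.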

How the data were processed

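CUT&Tag peak lists of 12 libraries were used. The tools named in the submitters' processing notes are MACS2 2.2.9.1, Picard 3.1.1, Bowtie2 2.5.1 and cutadapt 4.5, with the build mm10, and no settings are named. Per the file headers, the deposited lists hold a start, an end and a summit offset, and no count or score, so depth is unknown.

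Peaks were read as 0-based and are given counted from 1. Covered length is the number of bases under the peaks of a library in a member. Overlap meant at least 1 bp. Gene starts and promoters came from RefSeq tables of GRCm38.p6; 17492 protein-coding genes had a stranded start, and both span ends were used for 4395 others. Lengths were tested with limma 3.58.1 in R 4.3.3, checked on simulated data; other differences with exact permutation or sign-flip tests (Python 3.11.15, scipy 1.17.1).

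Members and lists were chosen with earlier results of these data known; the synthetase list was narrowed and the translation list renamed after their values were seen. Named genes were the 12 longest members, the 6 largest differences each way with arms apart, members without YY1 or H3K4me3, 3 genes per list, 5 regions just outside and 6 promoters; others named were chosen after their values were seen. Not all are described.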

Additional observations from a re-analysis of the deposited data

How the results depend on the processing

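The member count was 1339, from 1348 to 1704 when 1 SMC3 library was left out, the highest without WT library 3, and 877 when each list was cut to its 2061 longest peaks. The gene start share of members exceeded that of other regions by 12.3 points, but by 2.32 over regions in 5 of 6 libraries. In windows of 60 to 70% G and C, an alternative added after the data were seen, the excess over promoters with H3K4me3 only was 16.6 points for CCAAT and 10.2 for GGGCGGG. The gene start position differed between arms by -2.83 to 2 bp and the summit displacement by -2.92 to 0.417 bp when 1 library was left out, so their signs are not settled. The cause was not tested. The YY1 and H3K4me3 differences kept their direction in 15 of 15 alternatives each. With the replicate number as a block, the length difference stayed -0.09 (exact sign-flip p = 0.5) and limma called 0 members. The numbers are not shown to pair the libraries: same-numbered deviations correlated at 0.05, -0.04 and -0.08. Without both libraries whose descriptions name Abcam the length difference was -0.03 and the distance of SMC3 from YY1 summits differed by 1.63 bp (exact permutation p = 1 each). That left 2 against 2 libraries, which cannot give a small p. With 100 bp summit windows the distance of SMC3 from YY1 summits differed by 0.5 bp. Limma called 0 members under all 11 alternatives, with 62 to 87 at an unadjusted p under 0.05. Depth is unknown, no list carries a score, and in the short lists of WT library 3 of SMC3 and of YY1 an absent peak and a missed call cannot be told apart.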

Other observations

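Members were unevenly spread over chromosomes. The share of reproducible H3K4me3 regions with a member was 13.5% on chromosome 1 and 12.5% on chromosome 17, against 7.71% on all chromosomes, 4.84% on chromosome 11 and 5.20% on the X chromosome. Chromosome 1 held 143 members and chromosome 17 held 117. YY1 peaks, which the choice of members did not use, had a median of 364 bp on chromosome 1 and 373 bp on chromosome 17 against 338 bp on all, while the share of H3K4me3 regions with reproducible YY1 was 46.4% on chromosome 1, 52.1% on chromosome 17 and 43.6% on all. H3K4me3 peaks had medians of 753 and 794 bp on these chromosomes against 747 bp on all. Chromosome shares were computed after the data had been seen, and chromosomes are not replicates.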
